A study of Mus musculus with 27 samples.

Results

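The Dmrt family of transcription factors was followed through a mouse culture series that leads from embryonic stem cells to gonadal progenitors and induced Sertoli-like cells. Its members were matched by symbol to the 48795 Ensembl genes in the count tables, which gave 6 genes: Dmrt1, Dmrt2, Dmrt3, Dmrta1, Dmrta2 and Dmrtb1. All 6 passed the filter on low counts, as did 20839 genes in all. RNA was sequenced in 27 libraries that form 9 groups of 3. Every group came from XY cells of a C57BL/6 x CBA F1 background that carry Tesco-CFP, a fluorescent reporter of a Sox9 enhancer active in Sertoli cells, and R26-rtTA, which switches on TetO transgenes when doxycycline is present. The methods name a single clone of these cells, clone 7. ESC were embryonic stem cells that had been kept in 2i/LIF and moved to a serum replacement medium. EpiSC, cells in the state of the epiblast, were ESC kept for 60 h with 12 ng/ml bFGF, 20 ng/ml Activin A and 1% KSR, that serum replacement. M, early mesoderm, followed EpiSC after 36 h with 20 ng/ml bFGF, 10 ng/ml BMP4 and 10 µM LY294002, an inhibitor of PI3 kinase. IM1 to IM5 were M cells grown for 3.5 days towards intermediate mesoderm with 5 ng/ml bFGF and 20 ng/ml BMP4. IM1 received nothing more, and IM2, IM3, IM4 and IM5 also received 100 nM retinoic acid. IM2 and IM5 received 10 ng/ml Activin A as well, and IM4 and IM5 received 0.3 µM CHIR99021, an inhibitor of GSK3. iSLC were IM3 cells exposed for 24 h to lentiviruses that carry 2 doxycycline-driven genes, Nr5a1 and Dmrt1. They were then grown in a Sertoli cell medium with 2 µg/ml doxycycline and 50 ng/ml Activin A, and CFP-positive cells were sorted 4 days after doxycycline was added. The iSLC group therefore differs from IM3 in transgenes, medium, time and sorting at once.

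Dmrt proteins bind DNA through the DM domain, a zinc-binding module named after the fly gene doublesex and the worm gene mab-3, and members of the family act in sex determination from insects to mammals. In the mouse, Dmrt1 keeps Sertoli cells of the testis from taking on the fate of ovarian granulosa cells and also acts in germ cells. Dmrt2 patterns the somites, Dmrt3 and Dmrta2 act in the developing spinal cord and dorsal forebrain, Dmrta1 is expressed in the embryonic forebrain beside Dmrta2, and Dmrtb1 acts in spermatogonia.

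The part of each transcript that encodes the DM domain is shown because it defines the family and because counting per gene depends on how far members differ in sequence. The sequences were taken from GENCODE M21 transcripts on GRCm38, 5′ to 3′, and capitals mark the bases that are identical in all 6 members.
Dmrt1: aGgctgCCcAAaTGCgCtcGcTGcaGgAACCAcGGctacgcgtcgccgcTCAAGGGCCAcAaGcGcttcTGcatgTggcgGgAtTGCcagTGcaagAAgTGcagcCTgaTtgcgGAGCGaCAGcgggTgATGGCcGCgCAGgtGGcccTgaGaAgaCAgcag
Dmrt2: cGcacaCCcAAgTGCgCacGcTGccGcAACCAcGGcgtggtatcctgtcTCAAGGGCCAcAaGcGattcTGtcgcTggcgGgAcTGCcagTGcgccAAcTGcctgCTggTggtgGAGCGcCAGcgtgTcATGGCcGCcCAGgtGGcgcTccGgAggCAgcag
Dmrt3: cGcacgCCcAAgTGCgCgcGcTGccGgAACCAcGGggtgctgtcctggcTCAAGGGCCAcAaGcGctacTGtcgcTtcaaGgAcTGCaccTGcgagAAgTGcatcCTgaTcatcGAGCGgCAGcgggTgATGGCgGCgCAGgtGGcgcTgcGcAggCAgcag
Dmrta1: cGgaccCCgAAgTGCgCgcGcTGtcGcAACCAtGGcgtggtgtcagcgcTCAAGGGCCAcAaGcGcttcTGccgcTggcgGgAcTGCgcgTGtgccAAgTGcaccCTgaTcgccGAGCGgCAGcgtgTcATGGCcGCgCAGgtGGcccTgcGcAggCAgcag
Dmrta2: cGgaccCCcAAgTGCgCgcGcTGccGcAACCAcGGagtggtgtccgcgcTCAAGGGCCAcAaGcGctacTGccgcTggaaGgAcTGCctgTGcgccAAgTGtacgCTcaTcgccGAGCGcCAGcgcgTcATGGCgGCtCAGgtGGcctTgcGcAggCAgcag
Dmrtb1: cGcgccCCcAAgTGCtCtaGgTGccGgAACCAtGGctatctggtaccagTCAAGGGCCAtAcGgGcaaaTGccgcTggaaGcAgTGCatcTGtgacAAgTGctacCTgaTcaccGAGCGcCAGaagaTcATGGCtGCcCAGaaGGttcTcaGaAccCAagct
Of the 162 aligned bases, 76 (46.9%) were identical in all 6 members. Dmrta1 and Dmrta2 were the most alike pair at 88.3% identity, with 143 shared bases. Dmrt2 and Dmrtb1 were the least alike at 61.1%. The estimated counts of the 6 members were whole numbers in all 27 libraries (to within 1e-06), so no fraction of a read had been shared out between a member and another gene, whereas Dmrtc1b, of the multicopy Dmrtc1 genes, had whole numbers in 24.

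The genes lie on 2 chromosomes (GRCm38 coordinates, GENCODE M21). Dmrt1 (ENSMUSG00000024837, chr19:25505618-25604329), Dmrt3 (ENSMUSG00000042372, chr19:25610301-25623921) and Dmrt2 (ENSMUSG00000048138, chr19:25672411-25678991) form a cluster on the plus strand, in which 5971 bases separate Dmrt1 from Dmrt3 and 48489 bases separate Dmrt3 from Dmrt2. Dmrta1 (ENSMUSG00000043753, chr4:89679436-89694772, plus strand), Dmrtb1 (ENSMUSG00000028610, chr4:107676290-107684230, minus strand) and Dmrta2 (ENSMUSG00000047143, chr4:109978053-109983687, plus strand) are spread over chromosome 4, with 17981517 bases between Dmrta1 and Dmrtb1 and 2293822 bases between Dmrtb1 and Dmrta2. No exon of a member overlapped an exon of another gene.

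Each library held 35923040 to 84876603 estimated fragments, with a median of 61504816. Replicates differed by more than sampling noise, with a chi-square per degree of freedom of 3.46 to 49.1. The study calls the replicates biological, but neither it nor the labels say whether they came from separate differentiations, and all cells are of 1 clone, so p-values measure the spread between these libraries. Pluripotency markers summed to 2100 to 2340 CPM (counts scaled to the library total) in ESC, 1570 to 1660 in EpiSC and 168 to 189 in M, and the 3 germ cell markers Ddx4, Dazl and Stra8 summed to 82.1 to 85.1, 27.7 to 30.8 and 2.76 to 3.18 CPM in those groups. Markers of intermediate mesoderm and genital ridge were highest in IM3, at 559 to 650 CPM. The 7 Sertoli markers were all above the detection floor of 3 counts in iSLC, but their sum of 470 to 506 CPM overlapped the 476 to 565 CPM of IM3. They include the transgene Nr5a1, with 8709 to 11366 reads per iSLC library and 3 to 9 per IM3 library. Its detection and its part of the iSLC sum thus say nothing about Sertoli identity. With Nr5a1 left out, the marker sum was lower in every iSLC library than in every IM3 library. Libraries of the groups ESC, M, IM3 and IM4, 12 in all, stood apart from the other 15. Red blood cell markers summed to 4.02 to 27.5 CPM in them and to 0.373 to 1.38 CPM in EpiSC, IM1, IM2, IM5 and iSLC. Genes of the top quartile by GC content, relative to those of the bottom quartile and to the mean of all libraries, differed by -0.41 to 0.06 on the log2 scale in the former and by -0.09 to 0.42 in the latter. Of the comparisons made here, IM3 against M, IM4 against IM3 and IM5 against IM2 stay on one side of that division. The other pairwise comparisons cross it, and so do the Activin A differences that enter the Activin A by CHIR99021 interaction. In IM3 against IM1, IM2 against IM3 and IM5 against IM4, the added factor and this division cannot be told apart. Values corrected for the GC trend of each library are given for part of the comparisons, mostly for Dmrta2 and Dmrt3. Their GC contents of 65.4% and 59.6% exceed those of 99.5% and 94.6% of the genes tested.

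Levels are given as TPM, read counts scaled for gene length and library. Across the series Dmrt1 held the widest range, and Dmrt2 never left the range of very few reads. The summed TPM of the 6 members was 28.4 in ESC, 16.0 in EpiSC, 2.26 in M and between 1.09 (IM4) and 4.51 (IM5) in the IM groups, and it was 216.5 in iSLC. Dmrt1 made up 76.1% of that sum in ESC and 98.5% in iSLC. In EpiSC, Dmrt1 held 55.6% and Dmrtb1 31.9%. Dmrt3 held the largest share in M (36.9%), Dmrt1 in IM3 (40.4%), and Dmrta2 in IM1 (64.6%), IM2 (43.6%), IM4 (32.9%) and IM5 (47.9%).

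**Figure D1:**
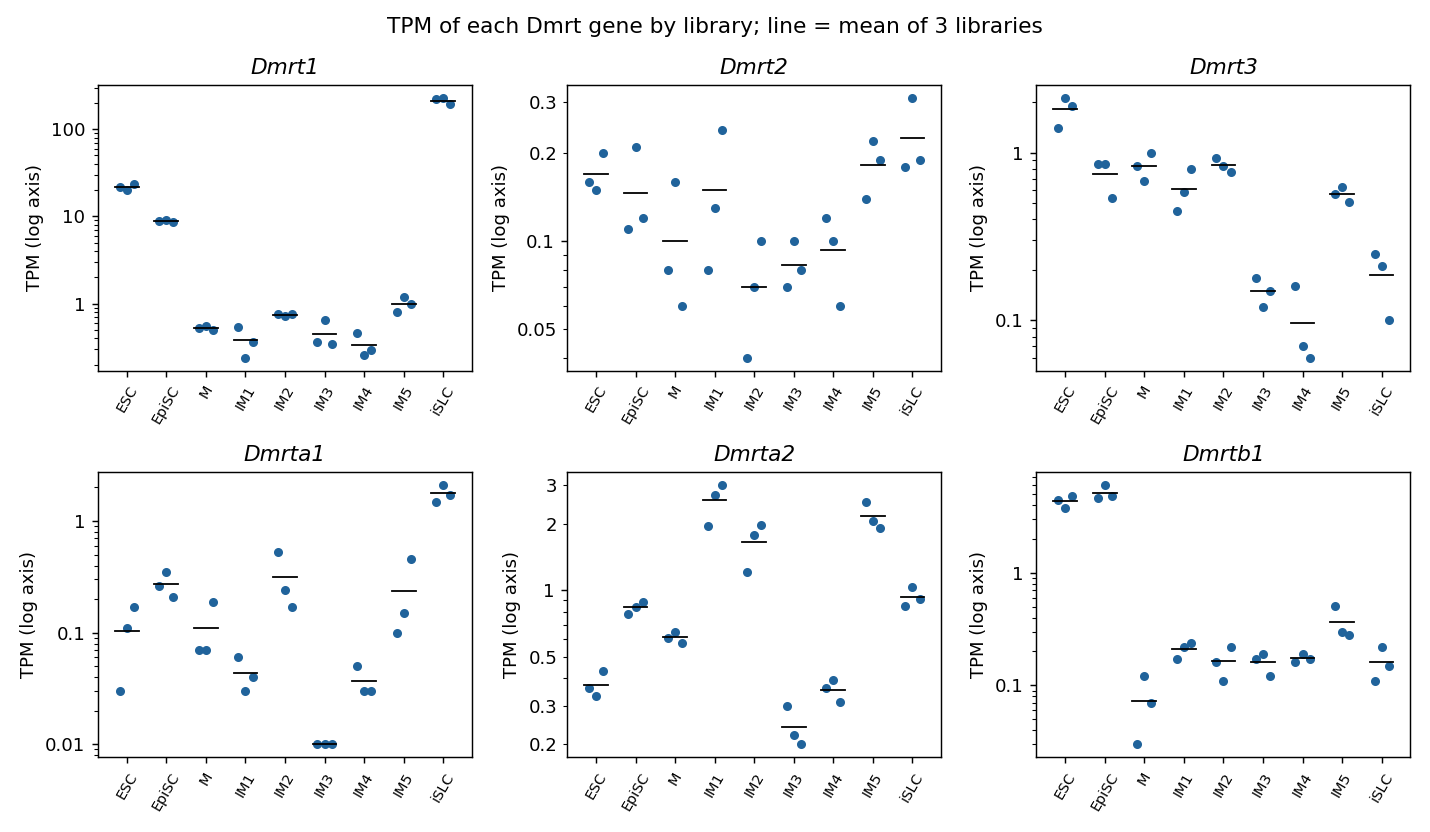
TPM of the 6 Dmrt genes in each of the 27 libraries (points) with the mean of each group of 3 (line), on a log axis, by group from ESC to iSLC. Dmrt1 lies between 192 and 228 TPM in the iSLC libraries and between 0.24 and 1.19 in the IM libraries, and Dmrtb1 drops from 3.78 to 6.04 TPM in ESC and EpiSC to 0.12 or less in M.

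Ordered by mean TPM, Dmrt1 ran from iSLC through ESC, EpiSC, IM5 and IM2 to M, with no overlap between libraries of neighbouring groups until M, IM3, IM1 and IM4, whose ranges overlapped from one group to the next. Dmrt2 showed the opposite picture. Its 3 to 23 reads per library gave group means of 0.07 TPM (IM2) to 0.227 TPM (iSLC), and each group overlapped the next. Dmrt3 was highest in ESC, formed a middle set of overlapping neighbours from IM2 to IM5, and was lowest in iSLC, IM3 and IM4. Dmrta2 was highest in IM1, IM5 and IM2, whose neighbours overlapped, and lowest in IM3. Dmrtb1 was high in EpiSC and ESC, which overlapped, and the next group, IM5, was at 0.363 TPM. Dmrta1 led in iSLC, and its TPM carries an added uncertainty because the length that its estimate used ranged from 973 to 4079 bases between libraries. Counts are therefore given for Dmrta1 below.

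The exit from the ESC state was examined by comparing EpiSC with ESC. A gene was called changed at an edgeR adjusted p of at most 0.01 and a fold of at least 2, adjusted over all genes tested. By this rule 2 members rose and 2 fell, against 18.4% of all genes called in this comparison (8.1% higher and 10.3% lower). In bulk RNA, fewer cells that express a gene and less RNA per cell cannot be told apart.

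Dmrt1 stood at 21.8, 19.8 and 23.2 TPM in the ESC libraries (mean 21.6 ± 1.71, SD, n = 3) and at 8.93, 9.06 and 8.69 TPM in EpiSC (8.89 ± 0.188). All EpiSC libraries were below all ESC libraries, and at 21.6 TPM Dmrt1 exceeded 77.6% of the genes detected in ESC. Dmrt1 fell by 1.24 on the log2 scale (SE 0.093, edgeR adjusted p = 1.14e-11). Its cluster neighbour Dmrt3 had 1.41, 2.12 and 1.9 TPM in ESC and 0.86, 0.85 and 0.54 TPM in EpiSC, again without overlap. Dmrt3 fell by 1.25 on the log2 scale (SE 0.25, edgeR adjusted p = 9.3e-05), or by 1.44 with the GC correction. The third gene of the cluster, Dmrt2, had 0.15 to 0.20 TPM in ESC and 0.11 to 0.21 TPM in EpiSC, which overlapped, and its log2 fold change was -0.19 (adjusted p = 0.724).

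On chromosome 4, Dmrta1 had 3, 8 and 11 reads in ESC and 42, 57 and 39 in EpiSC. The groups were separate, and Dmrta1 rose by 2.26 on the log2 scale (SE 0.38, edgeR adjusted p = 1.05e-05). With an offset for the estimated gene length, its log2 fold change was 1.5 and the call was lost (adjusted p = 0.019). Dmrta2 had 0.36, 0.33 and 0.43 TPM in ESC and 0.78, 0.84 and 0.89 TPM in EpiSC. All EpiSC libraries were higher, with a log2 fold change of 1.21 (SE 0.21, edgeR adjusted p = 2.4e-05) that became 0.60 with the GC correction, under the fold threshold. Dmrtb1 had 4.43, 3.78 and 4.83 TPM in ESC and 4.57, 6.04 and 4.79 TPM in EpiSC, which overlapped in TPM. Its log2 fold change of 0.50 was under the fold threshold (adjusted p = 0.0293).

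In the step from EpiSC to M, no member rose and 3 fell, against 28% of all genes called (10.7% higher and 17.3% lower). Dmrt1 and Dmrtb1, the members best known from the testis, had the largest falls. Dmrt1 went from 8.89 TPM to 0.52, 0.56 and 0.50 TPM in the M libraries (0.527 ± 0.0306, n = 3). The M libraries lay far below every EpiSC library, and Dmrt1 fell by 4.14 on the log2 scale (SE 0.14, edgeR adjusted p = 4.84e-19). Dmrtb1 had 351, 381 and 344 reads in EpiSC and 1, 6 and 3 reads in M. It was thus close to the detection floor in M, and it fell by 6.42 on the log2 scale (SE 0.32, edgeR adjusted p = 6.99e-16). Corrected for library size, EpiSC had 88.2 times the reads of M, with an exact interval of 47.8 to 184 that covers counting error only.

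Dmrta1 had 10, 10 and 27 reads in M, all below the 39 to 57 of EpiSC. It fell by 1.29 on the log2 scale (SE 0.33, edgeR adjusted p = 0.00126), a call that rests on few libraries. Without EpiSC replicate 2 the log2 fold change was -1.04, without M replicate 1 it was -1.05 and without M replicate 2 it was -1.1, and the call was lost each time (adjusted p = 0.013, 0.013 and 0.01). Dmrta1 was also not called with the length offset (adjusted p = 0.014). Dmrt3 was at 0.83, 0.68 and 0.99 TPM in M, which overlapped EpiSC, and its log2 fold change was 0.08. Dmrta2, at 0.58 to 0.65 TPM in M, had a log2 fold change of -0.52 (adjusted p = 0.023), which became 0.01 with the GC correction (adjusted p = 0.99).

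Genes of germ cells and other Dmrt-named genes were set beside the members. The latter, the Dmrtc1 genes and Dmrtc2, were not searched for a DM domain. Among the 12 germ cell genes, 9 fell and 1 rose between EpiSC and M, with a median log2 fold change of -3.22 against -0.06 for all genes. Stra8, which is needed for meiotic entry, fell by 4.64, Sohlh2, a regulator of spermatogonia, fell by 4.28 and Dazl, an RNA-binding protein of germ cells, fell by 4.21, while Zbtb16, known from spermatogonial stem cells, rose by 3.70. Of the 5 other Dmrt-named genes 4 fell. Dmrtc1c1, whose reads had in part been shared out between genes, changed most, with a log2 fold change of -8.28. Dmrtc2, expressed in the testis, had the smallest of the 4 falls, with a log2 fold change of -3.97. In EpiSC against ESC the same lists had 5 lower and 1 higher among the germ cell genes and 3 lower and 0 higher among the Dmrt-named genes.

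The M cells were then grown towards intermediate mesoderm. IM1, which had only bFGF and BMP4 added, was compared with M. There 1 member rose and 1 fell, against 27.9% of all genes (17.6% higher and 10.3% lower). Dmrta2 went from 0.61, 0.65 and 0.58 TPM in M to 1.97, 2.71 and 3.02 TPM in IM1, the highest level of this gene in the series. All IM1 libraries were above all M libraries, and the log2 fold change was 1.96 (SE 0.19, edgeR adjusted p = 5.92e-10), or 1.19 with the GC correction. Dmrta1 had 2, 5 and 7 reads in IM1 and fell by 2.17 on the log2 scale (SE 0.45, edgeR adjusted p = 0.000141), a call that was lost with the length offset (log2 fold change -1.73, adjusted p = 0.02). Dmrtb1 had a log2 fold change of 1.14 that was not called (adjusted p = 0.0327), but it was called at 1.9 (adjusted p = 0.0048) without M replicate 2 and at 1.35 (adjusted p = 0.0086) with the length offset. Dmrt1 at -0.61 (adjusted p = 0.022) and Dmrt3 at -0.53 (adjusted p = 0.0721) were not called.

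With retinoic acid added, IM3 differed from M in 3 members, all lower, against 25.9% of all genes called (16.2% higher and 9.73% lower). Both groups had overlapping red blood cell marker sums, at 12.5 to 21.3 CPM in M and 6.15 to 19.6 CPM in IM3. Dmrt3 had 0.18, 0.12 and 0.15 TPM in IM3, below all M libraries, and fell by 2.59 on the log2 scale (SE 0.33, edgeR adjusted p = 1.41e-07). Dmrta2 had 0.30, 0.22 and 0.20 TPM in IM3, again below every M library, and fell by 1.52 (SE 0.25, edgeR adjusted p = 6.71e-06). Dmrta1 had a single read in each IM3 library against 47 reads in all of M. Corrected for library size, the ratio of IM3 to M was 0.075, with an exact 95% counting interval of 0.0149 to 0.233 (edgeR adjusted p = 1.51e-05).

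IM3 was then compared with IM1, which differed by design in retinoic acid alone but lies on the other side of the library division. These cannot be told apart. Here 2 members were lower and none was higher by edgeR, against 12% of all genes called (5.17% higher and 6.81% lower). Dmrta2, at 26, 14 and 13 reads in IM3 against 222, 380 and 361 in IM1, fell by 3.48 on the log2 scale (SE 0.22, edgeR adjusted p = 8.09e-13), or by 2.80 with the GC correction. Dmrt3, at 13, 6 and 8 reads in IM3 against 41, 66 and 77 in IM1, fell by 2.06 (SE 0.34, edgeR adjusted p = 1.17e-05). With the GC correction it fell by 1.76. Neither gene had a library of one group inside the range of the other. Dmrt1 had 0.36, 0.65 and 0.34 TPM in IM3 and 0.54, 0.24 and 0.36 TPM in IM1, which overlapped. IM3 serves as a group in several of these comparisons, so they are not independent of each other.

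Activin A was tested on top of retinoic acid, once without CHIR99021 (IM2 against IM3) and once with it (IM5 against IM4). Each time Activin A coincides with the library division and cannot be told apart from it. The members that rose in both were the neural genes Dmrt3, Dmrta1 and Dmrta2, and Dmrt1 rose in the second. IM2 had 3 members higher and 0 lower than IM3, against 7.24% of all genes called (4.19% higher and 3.05% lower). IM5 had 4 members higher and 0 lower than IM4, against 8% of all genes called (4.99% higher and 3.01% lower).

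Dmrt3 had 0.93, 0.83 and 0.77 TPM in IM2 and 0.57, 0.62 and 0.51 TPM in IM5, the groups with Activin A. It had 0.12 to 0.18 TPM in IM3 and 0.16, 0.07 and 0.06 TPM in IM4. No library of IM2 or IM5 overlapped one of IM3 or IM4, whereas IM1, which had neither Activin A nor retinoic acid, overlapped both IM2 and IM5. Dmrt3 rose by 2.46 on the log2 scale in IM2 (SE 0.34, edgeR adjusted p = 1.3e-06) and by 2.61 in IM5 (SE 0.36, edgeR adjusted p = 1.33e-06). With the GC correction these became 2.21 and 2.27. Dmrta2 had 1.21, 1.79 and 1.99 TPM in IM2 and 2.51, 2.07 and 1.92 TPM in IM5, and 0.36, 0.39 and 0.31 TPM in IM4. These groups were also separate. Dmrta2 rose by 2.79 in IM2 (SE 0.23, edgeR adjusted p = 2.4e-10) and by 2.67 in IM5 (SE 0.21, edgeR adjusted p = 6.34e-11), which became 2.16 and 1.92 with the GC correction.

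Dmrta1 had 41, 31 and 24 reads in IM2 against 1 in each IM3 library. Corrected for library size, this was a ratio of 24.4 with an exact 95% counting interval of 8.12 to 121 (edgeR adjusted p = 4.21e-07). It had 15, 23 and 25 reads in IM5 and 5, 4 and 4 in IM4, without overlap, and rose by 2.01 on the log2 scale (SE 0.45, edgeR adjusted p = 0.000599). Dmrt1 stayed at 1.19 TPM or less in all IM libraries. It had 0.81, 1.19 and 0.99 TPM in IM5 and 0.46, 0.26 and 0.29 TPM in IM4, all IM5 libraries being higher. Dmrt1 rose by 1.59 (SE 0.22, edgeR adjusted p = 1.73e-06), or by 1.32 with the GC correction. In IM2, at 0.76, 0.72 and 0.75 TPM, its log2 fold change against IM3 was 0.85 (adjusted p = 0.0059), under the fold threshold, but it was 1.22 and called without IM3 replicate 2 (adjusted p = 0.00048). With the GC correction it was 0.66 (adjusted p = 0.033).

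**Figure D2:**
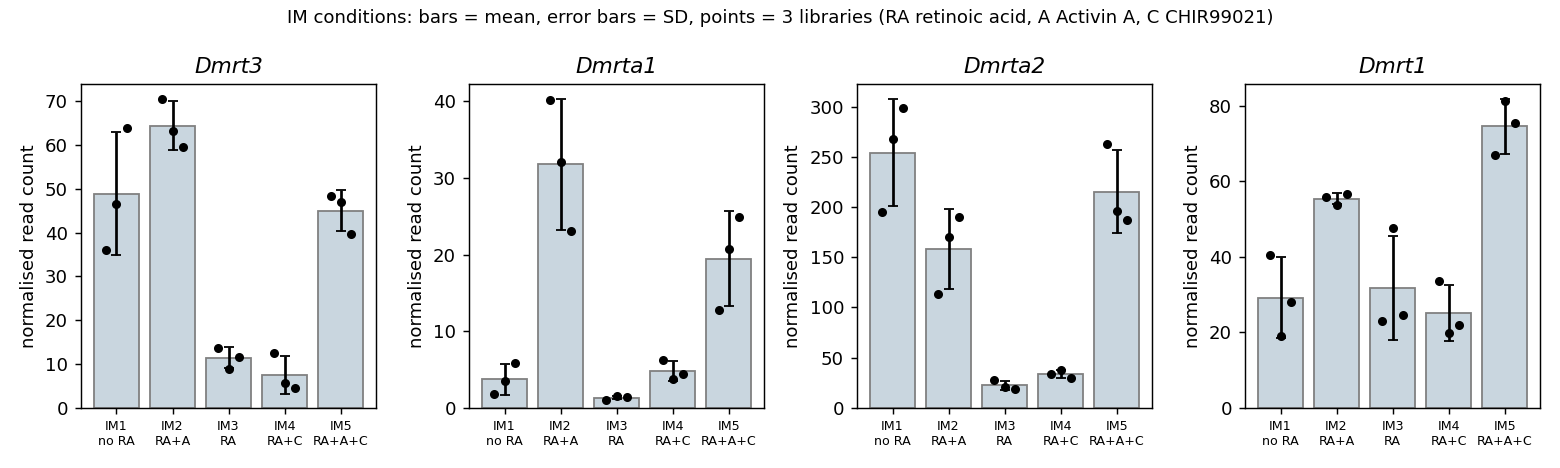
Read counts of Dmrt3, Dmrta1, Dmrta2 and Dmrt1 normalised to library size in the 15 libraries of IM1 to IM5, with points for libraries, bars for means and error bars for the SD of 3. Dmrt3 and Dmrta2 lie lower in IM3 and IM4, which had retinoic acid (RA) and no Activin A (A), than in IM1, IM2 and IM5, and C marks CHIR99021.

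Other genes of neural and somite tissue and other markers moved in these comparisons too. Of 10 forebrain and neural genes tested, 3 rose and 0 fell in IM2, with a median log2 fold change of 1.06, and 4 rose and 1 fell in IM5, with a median of 2.05. Sox3, a factor of neural progenitors, rose by 4.83 and 4.60 in the 2 comparisons, and its relative Sox2, which is also a pluripotency factor, rose by 3.23 and 2.92. Of the somite genes, 6 rose and 1 fell in IM2 and 8 rose and 1 fell in IM5. Pax3, which marks the dorsal somite and neural tube, rose by 1.8 and 2.23, while Tbx18, known from the anterior part of somites, fell by 2.29 and 2.84. The median log2 fold change of the 6 members was 1.65 in IM2 and 1.8 in IM5.

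Summed over 5 neural markers, the level was 39.4 to 49.4 CPM in IM2 and 35.8 to 48.9 CPM in IM5, against 19.6 to 22.5 CPM in IM3 and 17.5 to 21.2 CPM in IM4. These sums were carried by Tubb3, at a mean of 2581 normalised reads in IM2 and 1281 in IM3, and 2396 in IM5 and 1184 in IM4. Neurog2 was at or under the floor in all 4 groups, Pax6 in IM3 and Sox1 in IM4. Of the 6 red blood cell markers all were above the floor in IM3 and IM4 and 2 were in IM2 and IM5, where Hbb-bs and Hbb-bt were at or under it. Their summed level was 0.373 to 0.582 CPM in IM2 and 0.659 to 0.853 CPM in IM5 against 6.15 to 19.6 CPM in IM3 and 8.32 to 19.7 CPM in IM4. The part of neural and blood cells in the changes of the members was not tested.

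Dmrta2 and Dmrt3 were called in the same direction in IM3 against M, IM3 against IM1, IM2 against IM3 and IM5 against IM4, but in opposite directions in EpiSC against ESC. For these IM comparisons their promoters are shown from 250 bases before to 50 bases after the start, as listed by RefSeq on GRCm38.p6. The RefSeq start can differ from the start of the gene in GENCODE. Capitals mark matches to any of 3 motifs searched on both strands: ACANTGT, the core that Dmrt proteins bind, AGGTCA, which retinoic acid receptors bind as a repeat, and CAGAC, which the SMAD proteins of Activin signalling bind. Matches of different motifs did not overlap.
Dmrta2 (chr4:109977775-109978074, plus strand): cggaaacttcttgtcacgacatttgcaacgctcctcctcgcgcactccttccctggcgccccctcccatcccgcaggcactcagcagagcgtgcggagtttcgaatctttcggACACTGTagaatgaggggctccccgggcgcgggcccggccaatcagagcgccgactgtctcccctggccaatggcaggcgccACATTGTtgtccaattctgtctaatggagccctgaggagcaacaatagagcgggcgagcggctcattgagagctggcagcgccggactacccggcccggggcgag
Dmrt3 (chr19:25610287-25610586, plus strand): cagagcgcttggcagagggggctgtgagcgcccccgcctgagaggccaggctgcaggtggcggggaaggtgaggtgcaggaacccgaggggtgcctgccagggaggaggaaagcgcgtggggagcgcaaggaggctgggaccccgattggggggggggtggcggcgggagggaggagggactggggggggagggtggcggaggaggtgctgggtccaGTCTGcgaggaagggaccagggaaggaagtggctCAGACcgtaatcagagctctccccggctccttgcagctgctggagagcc
The Dmrta2 window held 2 matches to ACANTGT and 0 to the other motifs. The Dmrt3 window held 2 matches to CAGAC and 0 to the others. GENCODE places the start of Dmrt3 at 25610301, so most of this window, with both matches, lies inside the gene. Of the 32851 RefSeq promoter windows, 7.54% held ACANTGT, 16.3% held AGGTCA and 49.6% held CAGAC at least once. The windows of Dmrta1, Dmrt2 and Dmrtb1 held no match, and a missing match speaks only of these letters in this window. The Dmrta1 window (chr4:89687948-89688247) and a Dmrtb1 window (chr4:107683540-107683839) lay wholly inside the genes as GENCODE places them. In all, 5 of the 6 members had an entry in the RefSeq table.

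For CHIR99021 alone no member passed the call rule. In IM4 against IM3, edgeR and DESeq2 each called 0 of 6 members, and 0.173% of all genes were called by edgeR (0.0096% higher and 0.163% lower). At an unadjusted p under 0.05 edgeR had 2 members, Dmrta1 (log2 fold change 1.76, 13 against 3 reads) and Dmrta2 (0.57), and DESeq2 had 0. In IM5 against IM2 both tools called 0 members, against 0.485% of all genes by edgeR (0.11% higher and 0.374% lower), with 5 members at an unadjusted p under 0.05 by edgeR and 4 by DESeq2. Dmrt2, the somite gene, had the lowest of these p-values, with 3 to 23 reads over all libraries and a log2 fold change of 1.42 (SE 0.47, edgeR adjusted p = 0.0602). The test of whether the Activin A difference itself depended on CHIR99021 called 0 members with edgeR and with DESeq2, against 0.0432% of all genes (0.0144% higher and 0.0288% lower). Each tool had 2 members at an unadjusted p under 0.05. By edgeR these were Dmrt1, with a difference of 0.75 on the log2 scale (adjusted p = 0.446), and Dmrta1, with -2.48 (adjusted p = 0.274). That Dmrt1 passed the call rule with CHIR99021 and not without it is thus not shown to be a difference between the conditions.

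In iSLC against IM3, 4 members were higher and 0 lower, against 33.7% of all genes called (18.6% higher and 15.1% lower). Dmrt1 was one of the transgenes, so its level first served as a check of the labels. It had 219, 228 and 192 TPM in the iSLC libraries (213 ± 18.7, n = 3), or 13416, 11572 and 10093 reads, against 22, 32 and 17 reads in IM3. Every iSLC library was far above every other library of the series, and at this mean Dmrt1 exceeded 97.7% of the genes detected. The log2 fold change was 8.44 (SE 0.15, edgeR adjusted p = 2.93e-25). Nr5a1, the other transgene, had 100, 94.0 and 87.2 TPM in iSLC and 0.05 to 0.14 TPM in IM3, a log2 fold change of 10.06 (SE 0.18, edgeR adjusted p = 4.55e-25).

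Reads of the Dmrt1 transgene and of the endogenous gene were counted together and cannot be told apart by their number. The gene length in the deposited tables, which is weighted by the abundance of each transcript, gave a second view. GENCODE lists Dmrt1 transcripts of 2340, 1362 and 1130 bases, and the longest has 1125 coding bases followed by 979 bases after the stop codon. The mean transcript length that RSEM assigned to Dmrt1 was 1681, 1648 and 1638 bases in iSLC, against 2322 to 2340 in ESC and 2316 to 2328 in EpiSC. All iSLC libraries lay below the lowest IM library, IM3 replicate 1, at 2128 bases with 22 reads. If every Dmrt1 molecule were an annotated transcript, the longest one would hold 28.2% to 45.5% in iSLC, depending on which shorter transcript made up the rest. In ESC and EpiSC it would hold at least 97.6%. Transgene RNA need not match any of these transcripts, so the iSLC share describes the fit of RSEM and not real molecules. What the lentivirus carries beyond the coding sequence is not given in the sources used here, so the share of the transgene was not derived. Calculated per transcript with the length offset, the log2 fold change of Dmrt1 against IM3 was 8.94.

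**Figure D3:**
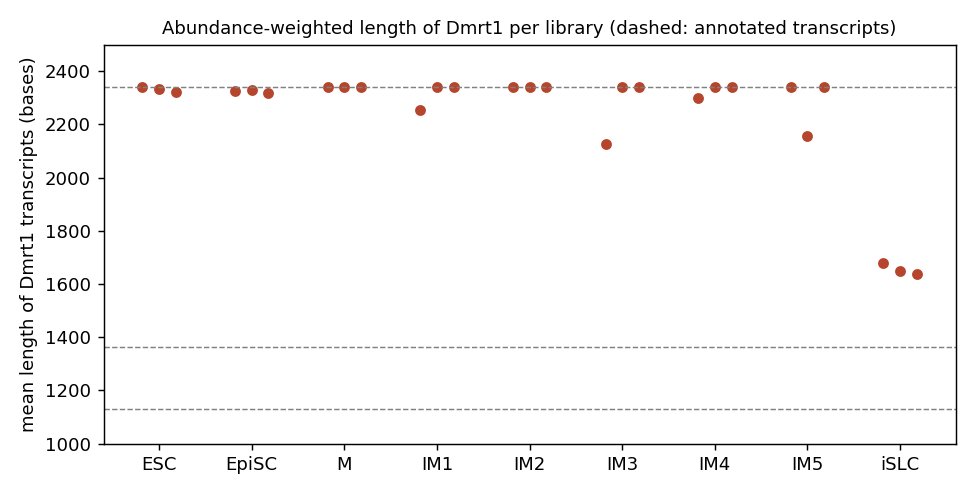
Mean length of Dmrt1 transcripts in bases in each of the 27 libraries, by group, weighted by their estimated abundance, with the lengths of the annotated transcripts as dashed lines and an axis that does not start at 0. The 3 iSLC libraries lie at 1638 to 1681 bases, and the ESC and EpiSC libraries at 2316 to 2340.

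The neighbours of Dmrt1 in the cluster did not follow it in size. Dmrt3, the nearest, had 0.25, 0.21 and 0.10 TPM in iSLC and 0.18, 0.12 and 0.15 TPM in IM3. These overlapped, and the log2 fold change was 0.30 (SE 0.40, edgeR adjusted p = 0.503), with an exact 95% counting interval of 0.754 to 2.06 for the ratio of reads. Dmrt2 had 16, 23 and 15 reads in iSLC and 5, 5 and 4 in IM3, without overlap. Its log2 fold change of 1.44 (SE 0.48, edgeR adjusted p = 0.0089) sat just inside the threshold, and the call was lost when any IM3 library, iSLC replicate 2 or iSLC replicate 3 was left out (adjusted p = 0.011 to 0.05), with DESeq2 (adjusted p = 0.018) and with the GC correction (1.29, adjusted p = 0.018). Of the genes that flank the cluster, Kank1, 71121 bases before Dmrt1, had a log2 fold change of 0.68 and Vldlr one of 0.76, both under the fold threshold, and Smarca2, 926058 bases beyond Dmrt2, rose by 1.42 (adjusted p = 7.6e-18). Of the 3 muscle progenitor markers, Pax7 was above the floor in all iSLC libraries, and Myf5 and Myod1 were at or under it. Their sum was 0.0697 to 0.143 CPM in iSLC. Of the 2 that were tested, 1 was called higher than in IM3 and 0 lower.

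**Figure D4:**
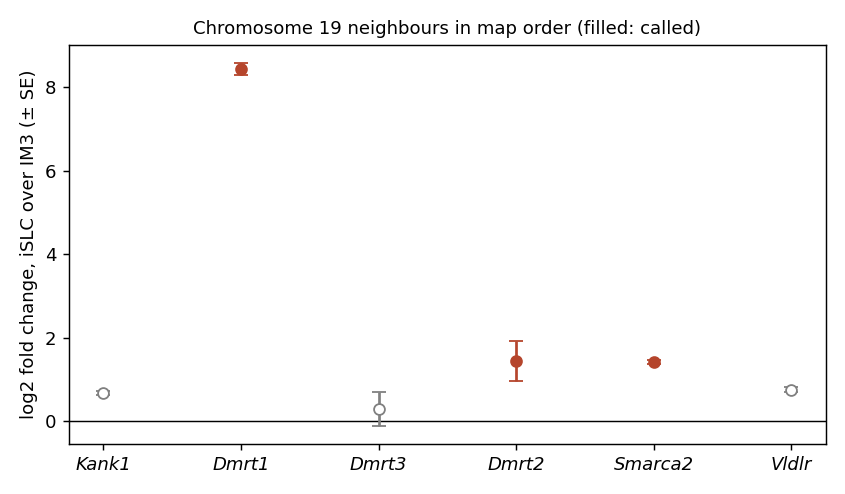
Log2 fold change of iSLC against IM3 with its standard error for the genes of the chromosome 19 cluster and its flanks, in map order, with filled points for called genes. Dmrt1 stands at 8.44, and its neighbours Dmrt3 and Dmrt2 stand at 0.30 and 1.44.

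Away from the cluster, Dmrta1 showed the second largest rise of the family. It had 239, 226 and 175 reads in iSLC and 1 in each IM3 library. Every iSLC library exceeded all others of the series, where the highest had 57. Corrected for library size the ratio was 151, with an exact 95% counting interval of 51.6 to 736 (edgeR adjusted p = 3.28e-13). Dmrta2, which is close to Dmrta1 in sequence, had 0.85, 1.04 and 0.91 TPM in iSLC, above all IM3 libraries but below those of IM1, IM2 and IM5. Its log2 fold change was 1.94 (SE 0.24, edgeR adjusted p = 5.05e-08), or 1.03 with the GC correction. Dmrtb1 had 0.11, 0.22 and 0.15 TPM in iSLC and 0.17, 0.19 and 0.12 TPM in IM3, which overlapped, and its log2 fold change was -0.03.

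Genes that act with Dmrt1 or against it were counted from fixed lists in iSLC against IM3. Of 11 Sertoli partners and targets, 10 were tested, since Sry did not pass the filter, and of these 2 rose and 1 fell, with a median log2 fold change of 0.45 against 0 for all genes. The risers were Nr5a1 itself and Dhh, a hedgehog ligand that Sertoli cells secrete (1.43), and Cyp26b1, which degrades retinoic acid in the fetal testis, fell by 3.64. Of the 9 granulosa cell genes 5 rose and 1 fell, with a median of 1.11: the estrogen receptors Esr1 (3.94) and Esr2 (1.91), the ovarian factor Foxl2 (1.68), the activin antagonist Fst (1.67) and the ligand Wnt4 (1.11) rose, and the nuclear receptor Nr5a2 fell by 1.11. Of 12 germ cell genes 2 rose and 5 fell, with a median of -0.76. Sohlh2 rose by 4.74 and Ddx4, an RNA helicase of germ cells, by 1.86, and Prdm1, a factor of germ cell specification, fell by 2.88. Of 13 somite genes 6 rose and 1 fell (median 1.38), led by Meox2 (7.04) and Meox1 (5.20), and of 10 forebrain and neural genes 2 rose, Pax6 (3.34) and Sox1 (3.11), and 0 fell (median 0.50). The members had a median of 1.69.

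Markers of other cells also differed between iSLC and IM3. The 3 endothelial markers Pecam1, Cdh5 and Kdr summed to 6.05 to 7.27 CPM in iSLC and 95.4 to 112 CPM in IM3, and the red blood cell markers to 0.727 to 0.966 and 6.15 to 19.6 CPM. Of the 5 neural markers, 4 were tested and 2 of them rose, Pax6 and Sox1, with a median log2 fold change of 2.26. The neural sum went the other way, at 11 to 12.7 CPM in iSLC and 19.6 to 22.5 CPM in IM3, and was carried by Tubb3, a tubulin of neurons, whose log2 fold change was -0.95 (663.5 against 1281 normalised reads), under the fold threshold. The iSLC cells had been sorted for CFP and the IM3 cells had not, and the part of cell composition in these differences was not tested.

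**Figure D5:**
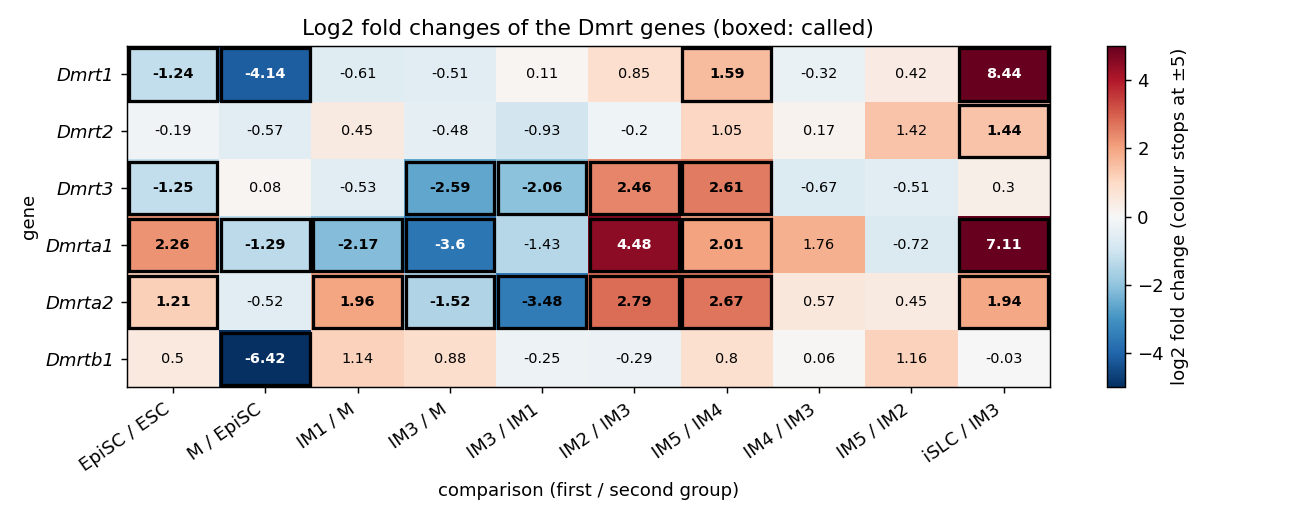
Log2 fold change of each member (rows) in each of 10 pairwise comparisons (columns), as colour and number, with a box around those that passed the call rule and colour that stops at 5 in either direction. The largest changes are Dmrt1 and Dmrta1 in iSLC against IM3 (8.44 and 7.11) and Dmrtb1 in M against EpiSC (-6.42).

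Over all 9 groups, each of the 6 members changed in the edgeR test at an adjusted p under 0.05, as did 96.4% of all genes tested. The adjusted p was 1.44e-30 for Dmrt1, 1.59e-20 for Dmrtb1, 2.61e-15 for Dmrta1, 7e-15 for Dmrta2, 2.43e-12 for Dmrt3 and 0.0121 for Dmrt2. A share this close to that of all genes says little about the family, and Dmrt2 was the member nearest to the threshold.

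The genes whose log2 CPM over the 27 libraries ran most like each member were listed as a description, since libraries of a group are not independent points. Ltbp4 was most like Dmrt1 (Pearson r = 0.982). Uchl1 was most like Dmrtb1 (r = 0.976), Lrig1 most like Dmrta1 (r = 0.94), Gas2l1 most like Dmrta2 (r = 0.928) and Gpat3 most like Dmrt3 (r = 0.905). Dmrt2 had no close match, with Esrra first at r = 0.724. Over the 9 group means the first gene was the same for Dmrt1 (r = 0.99) and Dmrta2 (r = 0.947) and another gene for the other 4 members, and without iSLC it was the same for Dmrta2 alone (r = 0.968). Between members the closest pair was Dmrt1 and Dmrta1 (r = 0.71), both highest in iSLC, and Dmrt1 and its neighbour Dmrt3 had r = 0.17.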

How the data were processed

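RNA from 27 libraries (9 groups of 3, from the labels) had been prepared with a TruSeq V2 kit and sequenced as paired 75-base reads. According to the methods and the submitters' processing notes, the authors trimmed reads with cutadapt 1.9.1, aligned them with STAR 2.5.2a to GRCm38 with Ensembl release 86 and quantified genes with RSEM 1.3.0. The authors deposited expected counts, the fragments per gene as estimated by RSEM, with no scaling between libraries. The deposited TPM values scale these for transcript length and library, and the deposited FPKM values were not used. The deposited gene lengths gave the Dmrt1 and Dmrta1 lengths. Whether counting used strand is not given in the sources used here. Names and positions came from GENCODE M21 (48435 genes, 99.26%, matched), whose shorter Dmrt1 transcripts were assumed to equal those of release 86. Expected counts were rounded, filtered with filterByExpr (20839 genes) and scaled by TMM, and edgeR 4.0.16 (R 4.3.3) fitted quasi-likelihood models with all 27 libraries and 1 coefficient per group. P-values were adjusted by Benjamini-Hochberg over all genes tested. Calls needed an adjusted p of at most 0.01 and a 2-fold change, and the test over 9 groups an adjusted p under 0.05. Exact two-sided binomial intervals on summed reads cover counting error only.

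Alternatives were DESeq2 1.42.0 (size factors, and its own test), offsets for gene length or GC content, no low-count filter, only the compared groups, the study's minimum mean of 100 normalised reads, other thresholds, the replicate number as a block and leaving out each library. Sequences of the DM domain were read from GENCODE M21 transcripts, since no protein table was at hand, and promoters from a RefSeq table of GRCm38.p6. The steps were tested on simulated counts. All 6 members and gene lists were named, and of each list the largest changes, and the members and lists were chosen with earlier results of these data known.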

Additional observations from a re-analysis of the deposited data

How the results depend on the processing

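Over the alternatives, no log2 fold change of a member that had been called reversed its sign. Of the values of single members under an alternative, 1102 stayed on their side of the call rule, 35 lost a call and 5 gained one. The minimum mean of 100 normalised reads had the widest effect, because most members have few reads. With it the number of members called went from 4 to 1 in EpiSC against ESC, from 3 to 1 in M against EpiSC, from 2 to 1 in IM1 against M, from 3 to 0 in IM3 against M, from 2 to 1 in IM3 against IM1, from 3 to 1 in IM2 against IM3, from 4 to 1 in IM5 against IM4 and from 4 to 1 in iSLC against IM3. What remained was Dmrt1 in EpiSC against ESC, M against EpiSC and iSLC against IM3, and Dmrta2 in IM1 against M, IM3 against IM1, IM2 against IM3 and IM5 against IM4. Leaving out 1 library gave 4 to 4 members in EpiSC against ESC, 2 to 3 in M against EpiSC, 2 to 3 in IM1 against M, 3 to 3 in IM3 against M, 2 to 2 in IM3 against IM1, 3 to 4 in IM2 against IM3, 4 to 4 in IM5 against IM4, 3 to 4 in iSLC against IM3, 0 to 0 in the CHIR99021 comparisons and the interaction, and 6 to 6 over all 9 groups. Over all groups an adjusted p under 0.01 left 5 members, without Dmrt2.

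The replicate numbers did not pair the libraries: the mean correlation of same-numbered deviations was 0.002, and in 0 of 36 pairs of groups did all 3 numbers correlate above 0.1. When the number was fitted as a replicate block, the counts of members called were 4, 3, 2, 3, 2, 3, 4, 0, 0, 0, 4 and 6 in the order EpiSC against ESC, M against EpiSC, IM1 against M, IM3 against M, IM3 against IM1, IM2 against IM3, IM5 against IM4, IM4 against IM3, IM5 against IM2, interaction, iSLC against IM3 and all groups, as without it. Depth limits Dmrt2 most, with 3 to 23 reads in any library.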

Other observations

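Other Dmrt-named genes had values of their own in the series. Dmrtc1a rose between IM3 and iSLC, with a log2 fold change of 2.35 (edgeR adjusted p = 0.00183), while Dmrtc1b fell by 1.87. Dmrtc1b also fell by 3.40 in IM2 against IM3. In EpiSC against ESC, Dmrtc1c2 fell by 2.27, Dmrtc1b by 2.25 and Dmrtc1c1 by 1.55. The Dmrtc1 genes lie on the X chromosome. Dmrtc1c1 and Dmrtc1c2 had whole estimated counts in 20 of 27 libraries each and Dmrtc1b in 24. Reads of these genes had thus been shared out, and their values are uncertain. Dmrtc1a had whole counts in all 27 libraries.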
